A study of Mus musculus with 23 samples.

Results

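Axon guidance genes code for the ligands and receptors that steer growing nerve fibres, and 46 of them were followed here across 23 murine pancreatic ductal adenocarcinoma (PDAC) cell lines. The members were all genes on the array whose single platform symbol belongs to the semaphorins of classes 3 to 7, the plexins, the neuropilins, the Slits, the Robos, the netrins or the Unc5 receptors. They are 46 of the 18193 genes with a single symbol, and they are read by 103 of the 45037 probe sets analysed. For each member the probe set with the highest mean over the 23 lines stands for the gene, and 13 members have only 1 probe set.

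The lines were low-passage cultures of tumours from genetically engineered mice, hybridised without drug, 1 GeneChip Mouse Genome 430 2.0 array per line, and the set holds no normal pancreas. By the prefix of their names, 12 lines (PPT) were taken as primary tumour lines and 11 as lines from metastases: 2 with the prefix ASC, 4 with B, 2 with HEP, 1 with LN and 2 with PUL. The sources do not say what the prefix B stands for, and the line labelled B-152727 was taken as a line of mouse 15272. The study lists a genotype for 13 of the lines. Their Cre driver is Ptf1aCre/+ in 10 lines and Pdx1-Cre in 3, and both drivers act in the pancreatic epithelium. A Trp53 R172H allele is listed for 6 of the 13 and none for 7, and the genotype of the other 10 lines was not found in the sources used here. The numbers in the names point to 14 mice, 5 of which gave 14 of the lines, so lines of 1 mouse are not independent. Each line is a single culture of its tumour, and in such bulk RNA fewer cells of a type and less RNA per cell cannot be told apart.

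Semaphorins are secreted or membrane-bound ligands that bind plexins, and the secreted class 3 ligands mostly do so through neuropilins as co-receptors. Slits are secreted proteins read by Robo receptors, and netrins are laminin-related proteins read by Dcc and the Unc5 receptors. Outside the nervous system the same proteins act on cell adhesion, migration and vessel growth, and the pathway is known for frequent genetic changes in human pancreatic cancer.

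The epithelial or mesenchymal state of each line was read from marker genes on the same arrays, as the mean log2 signal of 10 epithelial markers minus that of 9 mesenchymal markers. The lines were divided at the widest gap in this score that left at least 5 lines on each side, which lay between -3.999 in PPT-5320 and -1.556 in PPT-5748. Below the gap were 6 mesenchymal-like lines of 6 mice, namely PPT-17728, PPT-16992, PPT-3250, PPT-5320, ASC-5193 and ASC-53909. A Trp53 R172H allele is listed for 1 of these 6 lines. Above it were 17 epithelial-like lines of 9 mice, 8 from primary tumours and 9 from metastases, with the allele listed for 5 and the genotype of 10 not listed. Cdh1, the E-cadherin of epithelial junctions and itself part of the score, had log2 signals of 2.22 to 6.48 in the mesenchymal-like and of 10.23 to 11.81 in the epithelial-like lines. Of the 10 epithelial markers 8 were lower by more than 1 in the mesenchymal-like lines, and 8 of the 9 mesenchymal markers were higher. The exceptions were Esrp1 at -0.81, Grhl2 at -0.25 and Vim at 0.57. The keratins overlapped between the states, with Krt8 reaching 12.81 and Krt18 12.80 in mesenchymal-like lines, against 12.26 to 13.75 and 12.36 to 13.74 in the others. Because the state was read from the arrays themselves, differences between the states are given as a description without a test. Their standard errors (SE) take each line as independent, which lines of 1 mouse are not, so they may be too small. The array medians lay between 3.58 and 3.89, and a member was counted as above background in a line where it exceeded the median of that array.

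Of the 46 members, 25 were above the array median in all 23 lines, 15 in some lines and 6 in none. Among all genes, 53.2% were above it in all lines and 26% in none. Being above it, alone or in a ligand-receptor pair, thus does not by itself show expression. The members above it in all lines were Sema3b, Sema3c, Sema3e, Sema3f, Sema4a, Sema4b, Sema4c, Sema4d, Sema6a, Sema6b, Sema6c, Sema7a, Plxna1, Plxna2, Plxna3, Plxnb1, Plxnb2, Plxnb3, Nrp1, Nrp2, Slit1, Ntn5, Unc5a, Unc5b and Unc5c. The members above it in no line were Sema3g, Plxnc1, Robo2, Robo4, Ntn3 and Unc5d. The signal of 20 members ranged over more than 3 on the log2 scale between the lowest and the highest line, a range reached by 14.6% of all genes, while 13 members stayed within a range of 1. The median range was 2.08 over the members and 1.26 over all genes.

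**Figure D1:**
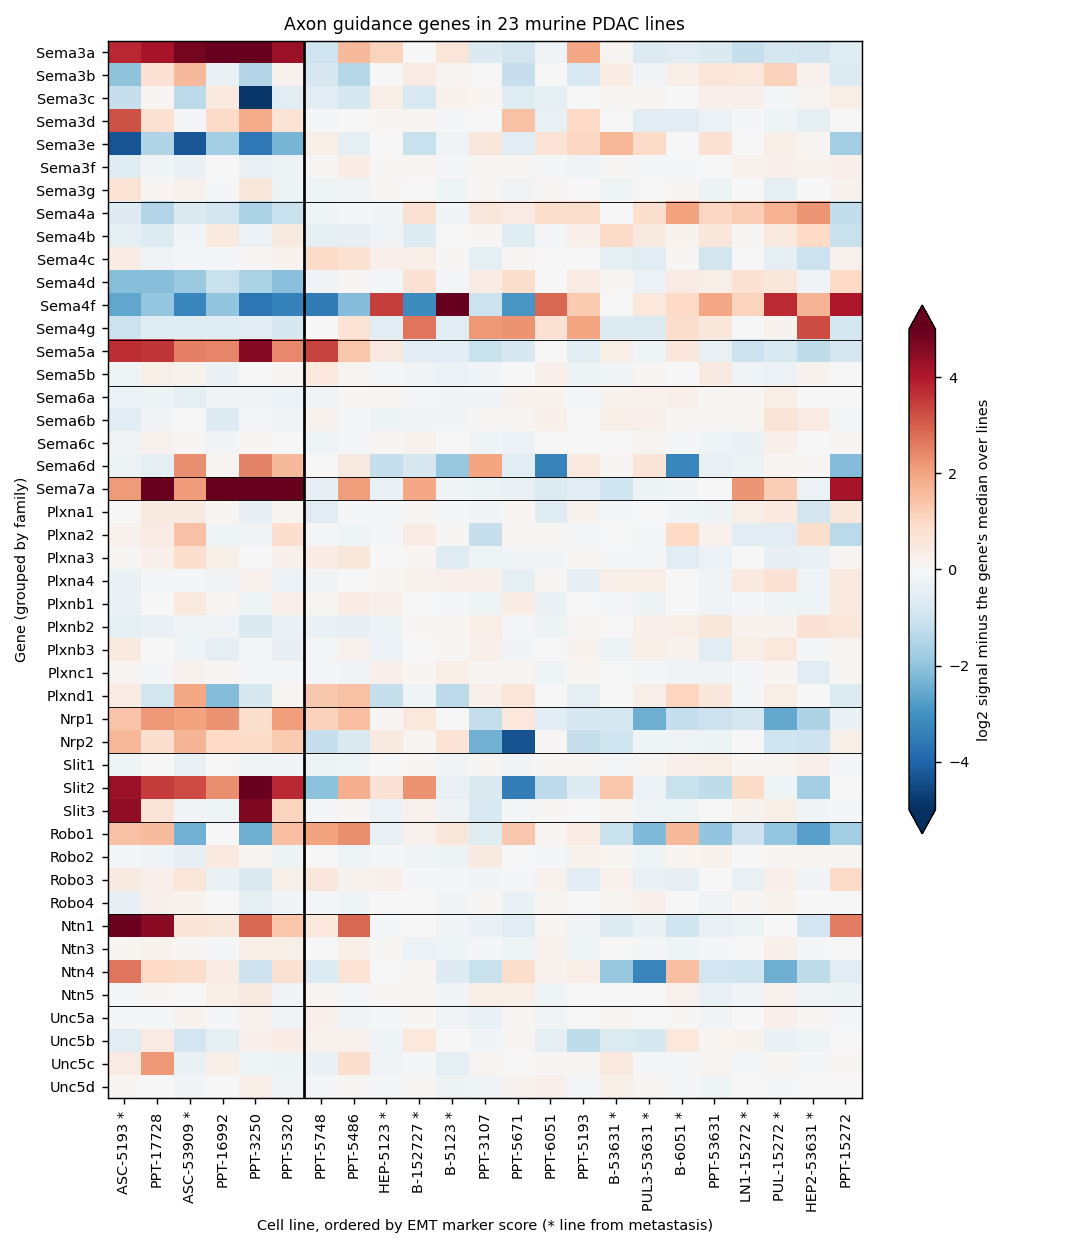
Log2 signal of the 46 axon guidance genes (rows, grouped by family) in the 23 lines (columns, ordered by the EMT marker score, with a black line between the 6 mesenchymal-like lines on the left and the 17 epithelial-like lines). Colour gives the signal minus the gene's median over the lines, and differences beyond 5 in either direction have the end colours. Sema3a, Sema5a, Sema7a, Slit2, Nrp1 and Nrp2 are red on the left, Sema3e and Sema4d are blue there, and most plexins, Robos and Unc5 receptors are pale throughout.

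Between the states, 11 of the 46 members had a mean signal higher by more than 1 log2 unit in the mesenchymal-like lines and 6 a lower one. Over all genes 4.49% were higher and 4.77% lower by that much, 9.25% in all. The higher members were Sema3a, Slit2, Sema7a, Sema5a, Ntn1, Nrp1, Nrp2, Slit3, Sema6d, Ntn4 and Sema3d. The lower members were Sema4f, Sema3e, Sema4d, Sema4a, Sema4g and Sema3c. These 17 include 15 ligands and both neuropilins, and ligands also make up most of the 46 members. All 9 plexins, 4 Robo receptors and 4 Unc5 receptors were among the 29 members that differed by less than 1. So did most of all genes, and Plxnc1, Robo2, Robo4 and Unc5d were above the array median in no line. The median size of the difference was 0.34 over the members and 0.18 over all genes. The values of the states did not overlap for 3 members that were higher (Sema3a, Slit2 and Nrp2) and for 1 that was lower (Sema4d). Over all genes, 0.566% were higher and 1.09% lower without overlap. Where the mean of a state lay below the array median, the difference gives only a lower bound of its size. This holds for Sema5a, Ntn1 and Slit3 on the epithelial-like side and for Sema4f and Sema4g on the mesenchymal-like side. Both means of Sema3d lay below it, so the size of its difference has no such reading.

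**Figure D2:**
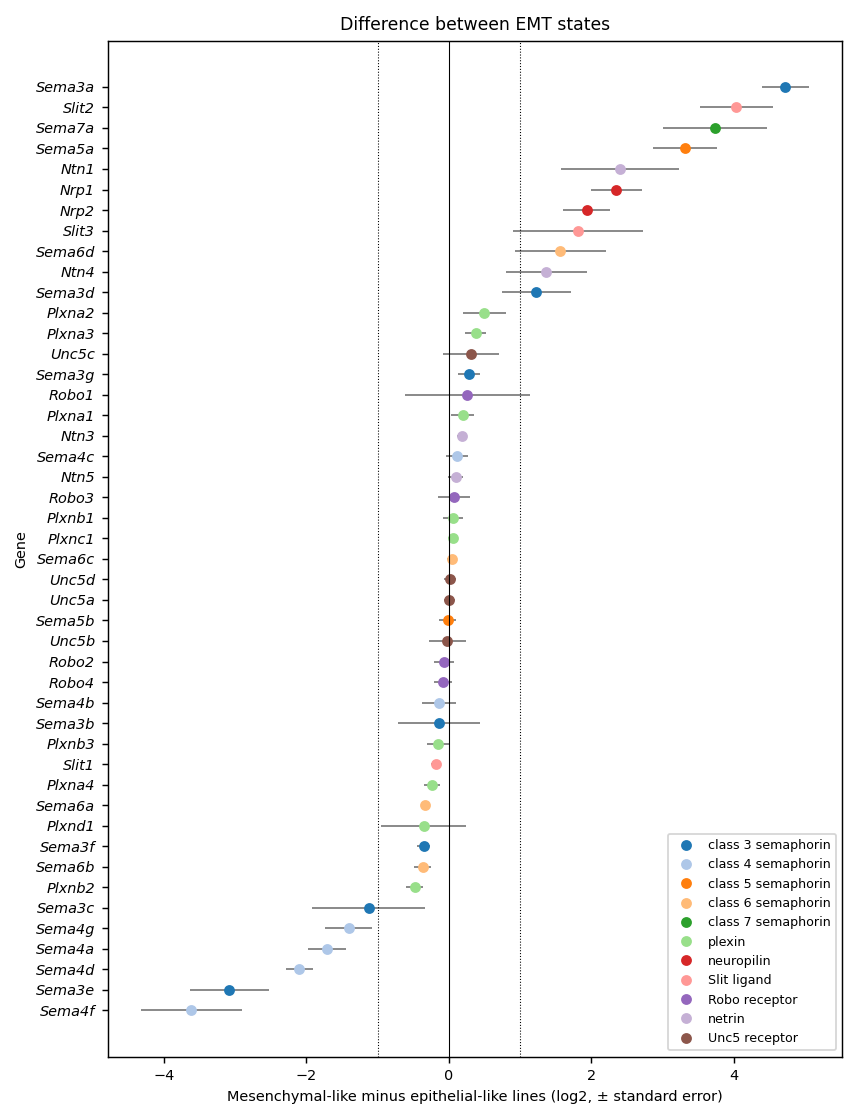
Difference of the mean log2 signal between the 6 mesenchymal-like and the 17 epithelial-like lines for each of the 46 genes, coloured by family, with the standard error of the difference as a bar and dotted lines at a difference of 1. The differences run from 4.73 for Sema3a to -3.61 for Sema4f, and the receptors other than the neuropilins lie between the dotted lines.

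The markers of fibroblasts moved with the states. All 8 of 8 fibroblast markers were higher by more than 1 in the mesenchymal-like lines, where the mean of the list lay between 5.99 and 9.51. In the epithelial-like lines it lay between 2.80 and 9.41, with PPT-5486 at 9.41 and the next line, LN1-15272, at 5.78. Lum was above the array median in only 4 lines, and Col3a1 in 11. Of the 5 duct markers measured, Krt7, Muc1 and Krt19 differed by -7.47, -5.81 and -4.87 between mesenchymal-like and epithelial-like lines, Onecut1 by -0.60 and Sox9 by 0.64. The 5 endothelial markers were below the array median in every line. Of the 5 immune markers measured, Ptprc and Itgam were below it in every line, while Cd68 and Csf1r were above it in all 23 and Cd3e in 21. No immune, endothelial or nerve marker measured differed by more than 1 between the states. The part of the fibroblast genes in the differences of the members was not tested.

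Among the 7 class 3 semaphorins, the secreted ligands, Sema3a had the widest separation. Sema3a, which repels nerve fibres through Nrp1 and A-type plexins, had log2 signals of 8.32 in ASC-5193, 8.67 in PPT-17728, 8.86 in PPT-5320, 9.32 in ASC-53909, 9.58 in PPT-3250 and 9.85 in PPT-16992. In the 17 epithelial-like lines it lay between 3.40 and 6.49 with a median of 3.92, so that every mesenchymal-like line was above every epithelial-like one. The means were 9.10 ± 0.58 (SD, n = 6) and 4.37 ± 0.95 (SD, n = 17), a difference of 4.73 ± 0.33 (SE) or 26.5-fold. The brightest epithelial-like lines were PPT-5193 and PPT-5486. Its other probe sets were higher in the mesenchymal-like lines by 2.96 and 4.85.

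Sema3e, which binds Plxnd1 directly and without a neuropilin, ran the other way. Its signals were 3.96 in ASC-5193, 4.02 in ASC-53909, 4.72 in PPT-3250, 5.95 in PPT-5320, 6.57 in PPT-16992 and 6.78 in PPT-17728, against 6.53 to 9.93 with a median of 8.42 in the epithelial-like lines. The sets overlapped in a single epithelial-like line, PPT-15272 at 6.53. The difference of the means was -3.08 ± 0.55 (SE), or 8.47-fold, and the other 3 probe sets of the gene gave -2.91 to -2.40. Sema3c, a ligand of both neuropilins, was bright in nearly all lines, with 9.97 to 11.14 in the epithelial-like lines and 9.50 to 11.26 in the mesenchymal-like lines other than PPT-3250. PPT-3250 stood at 5.92, and without its mouse the difference of -1.13 shrank to -0.40.

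Sema3d was above the array median in 2 lines, ASC-5193 at 5.37 and PPT-3250 at 4.06. Its difference of 1.23 became 0.90 without the mouse of ASC-5193. Sema3b and Sema3f, both described as tumour suppressor candidates in other cancers, differed by -0.13 ± 0.58 (SE) and -0.35 ± 0.09 (SE). Sema3b nevertheless varied between 3.75 in ASC-5193 and 7.38 in ASC-53909, both of them mesenchymal-like. Sema3f kept within 7.44 and 8.39 over all lines on its brightest probe set. The other 2 probe sets of Sema3f had means of 4.81 and 4.77 over all lines and gave differences of -0.19 and -0.31. Sema3g, a ligand of Nrp2, was above background in 0 lines.

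To show what stands next to the start of the members that differed most, the 250 bases before the start were taken from the RefSeq promoter table (GRCm38.p6) for the 2 members with the largest difference in each direction that have an entry. They were Sema3a (chr5:13396534-13396783, plus strand), Slit2 (chr5:47982905-47983154, plus strand), Sema3e (chr5:14025026-14025275, plus strand) and Sema4f (chr6:82939770-82940019, minus strand). Each is printed 5′ to 3′ on the strand of its gene, and capitals mark the E-box letters CACCTG or, on the other strand, CAGGTG, the motif bound by Zeb and Snail factors.
Sema3a: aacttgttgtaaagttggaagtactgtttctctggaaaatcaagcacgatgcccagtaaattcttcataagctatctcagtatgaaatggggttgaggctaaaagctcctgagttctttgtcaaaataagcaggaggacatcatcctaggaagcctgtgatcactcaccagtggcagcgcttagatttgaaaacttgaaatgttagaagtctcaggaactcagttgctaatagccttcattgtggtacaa
Slit2: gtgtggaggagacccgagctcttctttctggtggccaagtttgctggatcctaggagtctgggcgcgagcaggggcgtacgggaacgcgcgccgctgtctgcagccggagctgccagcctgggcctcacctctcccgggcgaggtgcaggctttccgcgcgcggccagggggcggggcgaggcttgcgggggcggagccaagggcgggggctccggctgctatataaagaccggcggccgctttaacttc
Sema3e: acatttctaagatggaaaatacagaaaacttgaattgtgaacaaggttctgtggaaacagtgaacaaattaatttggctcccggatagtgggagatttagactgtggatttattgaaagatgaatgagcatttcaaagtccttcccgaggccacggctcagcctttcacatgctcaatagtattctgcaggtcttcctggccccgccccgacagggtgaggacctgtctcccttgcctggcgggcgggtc
Sema4f: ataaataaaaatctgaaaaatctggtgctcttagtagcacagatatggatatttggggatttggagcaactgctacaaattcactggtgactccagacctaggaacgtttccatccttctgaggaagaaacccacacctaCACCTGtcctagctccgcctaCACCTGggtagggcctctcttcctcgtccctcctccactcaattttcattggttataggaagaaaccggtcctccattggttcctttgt

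The Sema4f stretch held the motif 2 times, beginning at positions -110 and -89, where -1 is the base before the start, and the other 3 stretches did not hold it. Of all 32851 promoters of this length in the table, 17.2% held the motif at least 1 time and 2.06% at least 2 times. Of the members, 38 had an entry, with 51 promoters, and 7 of these, or 13.7%, held it. A match describes letters in this window only. The stretches also differed in base composition, with a GC content of 40.8% and 2 CG pairs for Sema3a, 48% and 7 for Sema3e, 46% and 4 for Sema4f, and 69.6% and 25 for Slit2. The medians were 64.4% and 13 over the members' promoters and 52.4% and 6 over all promoters.

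Of the 6 class 4 semaphorins, membrane-bound ligands that mostly signal through B-type plexins, 4 were lower by more than 1 in the mesenchymal-like lines and none was higher by that much. Sema4d, the ligand of Plxnb1, had signals of 4.01 in ASC-5193 and PPT-17728, 4.07 in PPT-5320, 4.30 in ASC-53909, 4.55 in PPT-3250 and 5.04 in PPT-16992. In the epithelial-like lines it lay between 5.85 and 7.15 with a median of 6.46, so the sets did not overlap. The difference was -2.10 ± 0.19 (SE), or 4.29-fold. The other 2 probe sets of Sema4d, dimmer with means of 4.05 and 3.29 over all lines, gave -0.12 and -0.10, so that the separation rests on the brightest probe set.

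Sema4f, another membrane-bound ligand of the class, was above background in 13 of the 17 epithelial-like lines and in 1 of the 6 mesenchymal-like ones. It lay between 1.99 and 3.68 in the 6 mesenchymal-like lines, with a median of 2.66, and between 2.12 and 10.62 in the epithelial-like lines, with a median of 6.72. Of the epithelial-like lines, 4 lay among the mesenchymal-like ones, namely PPT-5748 at 2.12, B-152727 at 2.43, PPT-5671 at 2.70 and PPT-5486 at 3.45. The other 13 lay above all mesenchymal-like lines, with B-5123 at 10.62, PPT-15272 at 9.66 and PUL-15272 at 9.32 as the highest. B-152727, near the bottom of this range, and PPT-15272, near its top, come from the same mouse. The difference of the means, -3.61 ± 0.71 (SE), is a bound because of the dim lines, and the other probe set gave -1.21.

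Sema4a, known for its part in immune cell contacts, lay between 4.39 and 5.32 in the mesenchymal-like lines and between 4.75 and 8.19 in the epithelial-like lines, with medians of 4.95 and 6.73. Only PPT-15272, at 4.75, was an epithelial-like line within the mesenchymal-like range. The difference was -1.71 ± 0.27 (SE), and the other probe set, at -2.54, did not overlap between the states. Sema4g was at or below 3.36 in every mesenchymal-like line, above the array median in 0 of 6, and reached 7.15 in HEP2-53631 and 6.57 in B-152727. It was above the median in 12 of the 17 epithelial-like lines. Sema4b and Sema4c differed by -0.13 and 0.12.

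Of the transmembrane class 5 semaphorins, Sema5a, whose extracellular part carries thrombospondin repeats, had signals of 5.94 in PPT-5320, 5.99 in PPT-16992, 6.04 in ASC-53909, 7.09 in PPT-17728, 7.21 in ASC-5193 and 8.08 in PPT-3250. In the epithelial-like lines it lay between 2.26 and 6.92 with a median of 2.98. A single epithelial-like line, PPT-5748 at 6.92, reached the mesenchymal-like range, and the next one, PPT-5486, stood at 4.91. On this brightest probe set the difference was at least 3.32 ± 0.45 (SE), since only 5 of the 17 epithelial-like lines were above background. Its other 3 probe sets gave 0.17, 1.66 and 4.04, and those at 1.66 and 4.04 did not overlap between the states. The probe set at 0.17 had a mean of 2.15 over all lines, below the array medians. Sema5b was above the array median in 5 lines and differed by -0.02.

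Of class 6, also transmembrane, Sema6a, Sema6b and Sema6c differed by -0.33, -0.37 and 0.05, with ranges of 0.74, 1.30 and 0.58 over all lines. Sema6d, a ligand of Plxna1, varied far more, from 3.17 in PPT-6051 to 8.99 in PPT-3250. The lowest lines were PPT-6051 and B-6051, at 3.25, from the same mouse. The mesenchymal-like lines lay between 6.06 and 8.99 and overlapped with 10 of the 17 epithelial-like lines. The difference was 1.57 ± 0.64 (SE) on the brightest probe set and between -0.01 and 0.04 on the other 3. Those 3 had means of 2.41 to 2.68 over all lines, below the array medians, and say little about a difference.

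Sema7a, the membrane-anchored class 7 semaphorin, fell into separate levels within both states. It stood at 7.23 in ASC-5193 and 7.24 in ASC-53909, and at 10.04 in PPT-17728, 10.10 in PPT-3250, 10.29 in PPT-5320 and 10.67 in PPT-16992. In the epithelial-like lines it lay between 4.11 and 9.22 with a median of 4.87, and the highest were PPT-15272 at 9.22 and LN1-15272 at 7.30. All 4 lines of mouse 15272 were at 6.35 or more, whereas the lines of mouse 53631 lay between 4.11 and 5.11. The difference of the means was 3.73 ± 0.73 (SE), or 13.3-fold, and the other probe set gave 1.42. Plxnc1, its plexin receptor, was below the array median in all 23 lines, by the brightest of 6 probe sets, at 1.59 to 2.51.

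**Figure D3:**
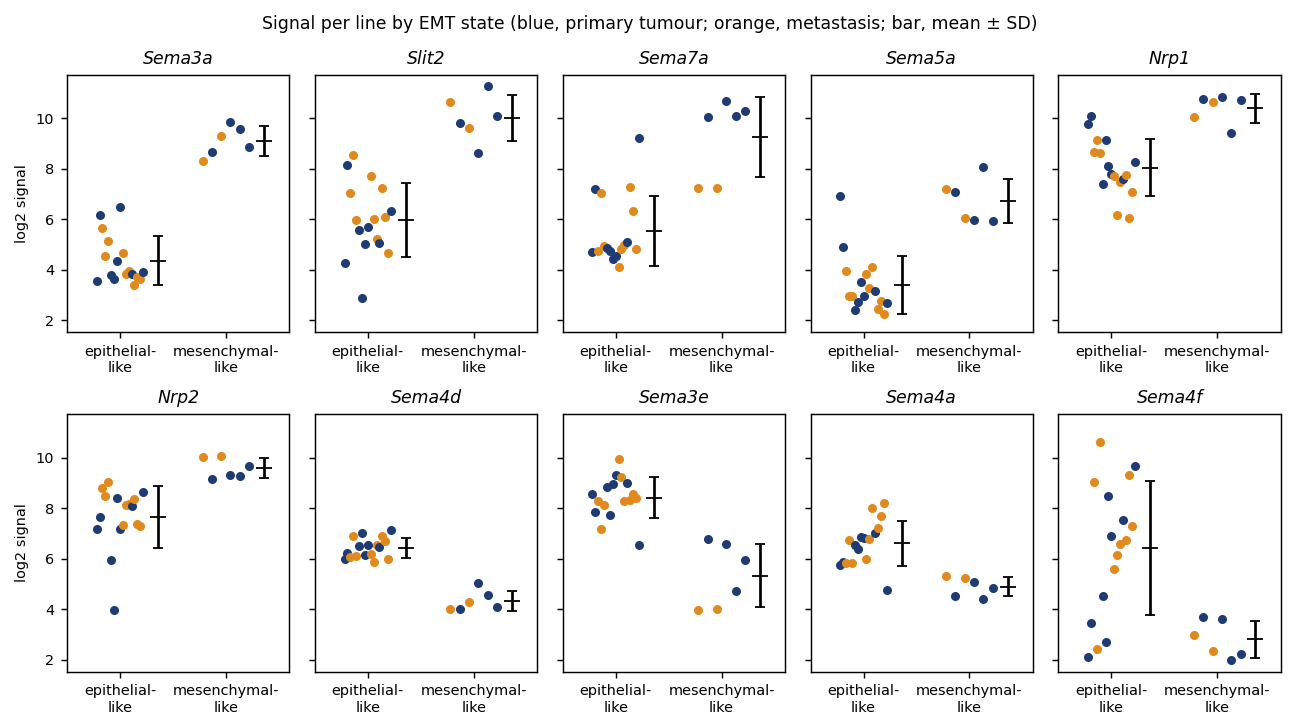
Log2 signal of 10 members in each line by EMT state, with 1 point per line (blue for primary tumour lines, orange for lines from metastases) and the mean ± SD of the 6 mesenchymal-like and 17 epithelial-like lines as a bar. Sema3a, Slit2 and Nrp2 are higher and Sema4d is lower in the mesenchymal-like lines without overlap, and Sema4f spreads from 2.12 to 10.62 among the epithelial-like lines.

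The neuropilins, co-receptors for class 3 semaphorins and for vascular endothelial growth factors, were above background in all lines. Nrp2 had 9.15 in PPT-17728, 9.28 in PPT-3250, 9.33 in PPT-16992, 9.65 in PPT-5320, 10.02 in ASC-5193 and 10.06 in ASC-53909. In the epithelial-like lines it lay between 3.98 in PPT-5671 and 9.02 in B-5123, with a median of 8.09. The sets did not overlap, but the gap between PPT-17728 and B-5123 was narrow. The difference was 1.93 ± 0.34 (SE), or 3.82-fold. The other 3 probe sets gave 0.32, 1.72 and 1.87, and each of them overlapped between the states. The probe set at 0.32 had a mean of 3.24 over all lines, below the array medians.

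Nrp1 lay between 9.40 and 10.86 in the mesenchymal-like lines and between 6.06 and 10.11 in the epithelial-like lines, with medians of 10.67 and 7.80. PPT-5486 at 10.11 and PPT-5748 at 9.78 were the epithelial-like lines within the mesenchymal-like range. The difference was 2.35 ± 0.36 (SE), or 5.11-fold, and the other 3 probe sets gave 1.00 to 2.36. Of the ligand pairs of the neuropilins, Sema3a and Nrp1 were both above background in 17 lines, 6 mesenchymal-like and 11 epithelial-like ones. Sema3c stood above it together with Nrp1 and Nrp2 in all 23 lines, as did Sema3f with Nrp2.

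None of the 9 plexins, the signalling receptors of the semaphorins, differed by more than 1 between the states. Their differences ran from -0.48 ± 0.12 (SE) for Plxnb2 to 0.50 ± 0.30 (SE) for Plxna2. Plxna3 was higher by 0.38 and Plxna1 by 0.19, and Plxna4, above background in 22 lines, differed by -0.23. Plxnb1 and Plxnb3 differed by 0.06 and -0.15, and Plxnc1 by 0.06. Plxnd1, the receptor of Sema3e, varied most, from 3.35 in PPT-16992 to 7.42 in ASC-53909, both mesenchymal-like lines, and differed by -0.35 ± 0.60 (SE) between the states. Sema3e and Plxnd1 were both above background in 22 lines, and Sema4d with Plxnb1 in 23. Sema6d and Plxna1 were above it together in 21 lines.

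Slit2, a secreted ligand of Robo receptors, had signals of 8.64 in PPT-16992, 9.61 in ASC-53909, 9.82 in PPT-17728, 10.09 in PPT-5320, 10.65 in ASC-5193 and 11.27 in PPT-3250. The epithelial-like lines lay between 2.87 in PPT-5671 and 8.56 in B-152727, with a median of 5.97. The sets did not overlap, but B-152727 at 8.56 and PPT-5486 at 8.14 came close to PPT-16992. The difference was 4.04 ± 0.51 (SE), or 16.5-fold. The other 2 probe sets, with means of 2.47 and 2.57 below the array medians, gave 1.54 and 1.81, and each of them overlapped between the states. Slit3 was above background in 4 lines, all of them mesenchymal-like. Its difference of 1.82 ± 0.91 (SE) came from ASC-5193 at 7.75 and PPT-3250 at 7.97, since the other mesenchymal-like lines lay between 3.09 and 4.40 and the epithelial-like lines between 2.52 and 3.61. Slit1 kept within 4.21 and 4.89 over all lines.

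Of the Robo receptors, Robo1 was above background in 12 lines, Robo3 in 10, and Robo2 and Robo4 in 0. Robo1 ranged from 1.10 in HEP2-53631 to 6.13 in PPT-5486, with high and low lines in both states and a difference of 0.26 ± 0.88 (SE). The 4 lines of mouse 53631 lay between 1.10 and 2.69, and those of mouse 15272 between 1.87 and 4.02. Robo2, Robo3 and Robo4 differed by -0.07, 0.07 and -0.08. Slit2 and Robo1 were both above background in 11 lines, 4 of them mesenchymal-like, and Slit2 without Robo1 in 11. Slit3 and Robo1 were both above it in 3 lines, all mesenchymal-like. Slit2 stood above background without Robo4, the Robo of endothelial cells, in 22 lines.

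Ntn1, the secreted netrin that attracts or repels nerve fibres depending on the receptor, had signals of 4.12 in PPT-16992, 4.20 in ASC-53909, 4.94 in PPT-5320, 6.43 in PPT-3250, 8.09 in PPT-17728 and 8.47 in ASC-5193. In the epithelial-like lines it lay between 2.57 and 6.43 with a median of 3.38, and only PPT-5486 at 6.43 and PPT-15272 at 6.13 reached the mesenchymal-like range. The difference was 2.40 ± 0.83 (SE) and that of the other probe set, with a mean of 2.35 below the array medians, 0.21. Ntn4, a netrin of basement membranes, ranged from 3.66 in PUL3-53631 to 9.65 in ASC-5193, and its difference of 1.37 fell to 0.98 without mouse 53631. Ntn3 and Ntn5 differed by 0.19 and 0.10.

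The Unc5 receptors of the netrins differed little between the states, by 0.01 for Unc5a, -0.02 for Unc5b, 0.31 for Unc5c and 0.02 for Unc5d. Unc5b lay between 7.07 and 8.86 over all lines. Unc5c lay between 3.81 and 5.12 except in PPT-17728, where it was 6.45. Ntn1 was above background together with Unc5b and Unc5c in 9 lines, all 6 mesenchymal-like and 3 epithelial-like ones, and the receptors stood above it without the ligand in 14.

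The lines of a state were not alike. For each of the 17 members with a difference over 1, a line was placed on one side or the other of the midpoint between the state means. The midpoints and the choice of the 17 come from the same lines, so the split itself restates that choice and only lines that depart from it add to it. The 6 mesenchymal-like lines were on the mesenchymal side for 13 to 16 of the 17 members and 15 of the 17 epithelial-like lines for 0 to 4. The others were PPT-5486, on the mesenchymal side for 7 members, and PPT-15272, for 6. PPT-15272 had the highest, that is the most epithelial, marker score of all lines at 2.61. Yet its Sema7a, Ntn1, Nrp2, Sema3e, Sema4a and Sema4g lay on the mesenchymal side, while Sema3a at 3.92 and Sema4f at 9.66 lay on the epithelial side. Its Nrp2, at 8.63 between state means of 9.58 and 7.65, was only just past the midpoint. That value lay below every mesenchymal-like line, the lowest being 9.15. PPT-5486 had a Cdh1 signal of 10.80 and fibroblast markers as high as in mesenchymal-like lines. Over the 20 members with a range above 3, lines of 1 mouse differed by a median of 0.61 per member over 15 pairs, and lines of different mice by 1.18 over 238 pairs. Among epithelial-like lines the median was 0.84 over 122 pairs from different mice, and it was 0.58 over the 14 pairs of 1 mouse and state.

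The mesenchymal-like line ASC-5193 and the epithelial-like line PPT-5193 come from the same mouse. Between these 2 lines 19 members differed by more than 1, and so did 15.3% of all genes. In the lines of the other mice 16 members differed by more than 1 between the states, beside 9.36% of all genes. Of these 16 members 15 went the same way in this pair, each by more than 1. The exception was Sema6d, at 6.25 in ASC-5193 and 6.97 in PPT-5193. How many of all genes went the same way was not determined, so the count does not show a trait particular to the members. The pair differed by 5.09 for Ntn1, 4.96 for Slit2, 4.42 for Slit3 and -5.35 for Sema3e, but by only 1.83 for Sema3a. State and site cannot be told apart in this mouse, and it has 1 line on each side.

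Comparing the 11 lines from metastases with the 12 primary tumour lines by limma, with the mouse as a random block, 0 of the 46 members passed an adjusted p under 0.05, and 0 had an unadjusted p under 0.05. Of all 45037 probe sets 0% passed the adjusted and 3.66% the unadjusted threshold. The members' differences were positive for 24 and negative for 22, with a median of 0.01. The smallest p values belonged to Plxna2, Sema4a, Sema5b and Plxnb3, all with an adjusted p of 0.9999 from limma.

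Plxna2, an A-type plexin, lay between 5.17 and 7.34 with a median of 6.46 in primary tumour lines and between 5.95 and 7.97 with a median of 6.55 in lines from metastases. The limma difference was 0.46 ± 0.23 (SE). Sema4a lay between 4.39 and 7.01 with a median of 5.81 in primary tumour lines and between 5.23 and 8.19 with a median of 6.73 in lines from metastases, a difference of 0.80 ± 0.40 (SE) that became 0.36 without mouse 15272. Sema5b differed by -0.17 ± 0.09 (SE) and Plxnb3 by 0.20 ± 0.11 (SE). In each of these members the ranges of the sites overlapped widely. The largest difference by site was that of Sema7a, -1.17 ± 0.79 (SE), and its 4 lines above 10 were all mesenchymal-like primary tumour lines.

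**Figure D4:**
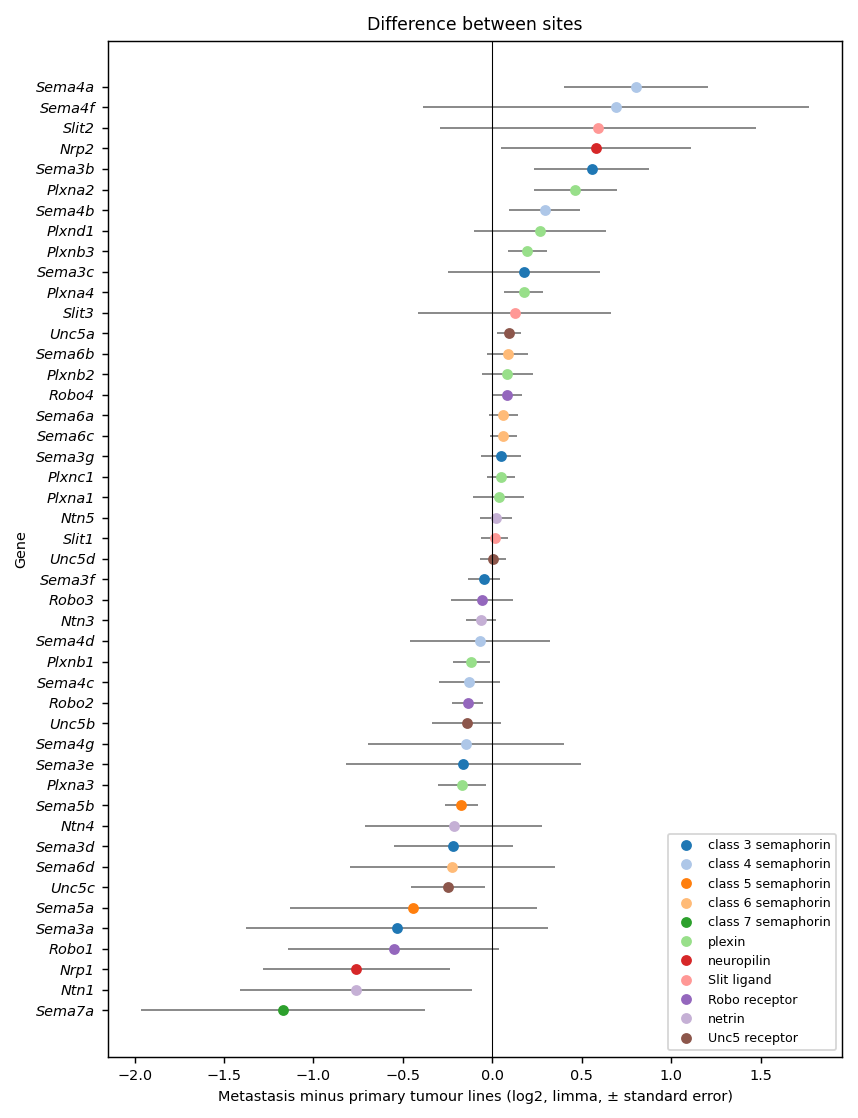
Difference of log2 signal between the 11 lines from metastases and the 12 primary tumour lines for each of the 46 genes, from limma with the mouse as a random block, coloured by family, with the standard error as a bar. The differences run from 0.80 for Sema4a to -1.17 for Sema7a, and none passed an adjusted p under 0.05.

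Within the 4 mice that gave lines of both sites, 12 lines in all, 0 members passed the adjusted threshold in limma with the mouse as a fixed block, and 2 had an unadjusted p under 0.05, against 3.6% of all probe sets. These were Sema4f, with a difference of -2.56 ± 1.10 (SE), and Ntn5, with 0.26 ± 0.11 (SE), both with an adjusted p of 0.9993 from limma. By the mean of each mouse's metastasis lines, 4 of the 46 members went the same way in all 4 mice, and so did 10.2% of all genes. They were Sema4f, Slit2, Plxna2 and Plxnb3. Sema4f was lower in the metastasis lines than in the primary tumour line in 4 of 4 mice, with differences of -3.90 to -1.18, whereas over all 23 lines its difference was 0.69 ± 1.08 (SE). The mean of Slit2 was higher in 4 of 4 mice, by 0.21 to 4.96, with a difference of 1.65 ± 0.79 (SE) and an adjusted p of 0.9993 in limma. Single metastasis lines were lower in Slit2, HEP2-53631 at 4.65 against PPT-53631 at 5.06 and PUL-15272 at 6.11 against PPT-15272 at 6.33. The largest difference of Sema4f and of Slit2 was that between ASC-5193 and PPT-5193, a pair that also differs in state. Plxna2 and Plxnb3 were higher by these means, with differences of 0.58 ± 0.27 (SE) and 0.31 ± 0.14 (SE) and unadjusted p values of 0.0595 and 0.0569 in limma. For Plxna2 the difference in mouse 53631 was 0.05, with B-53631 at 6.50 and PUL3-53631 at 6.44 below PPT-53631 at 6.72. For Plxnb3, B-152727 at 4.82 lay below PPT-15272 at 4.94. Sema4a differed by 2.46 in mouse 15272 and by -1.51 between ASC-5193 and PPT-5193.

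Other genes of the pathway were read from lists of further guidance ligands, co-receptors and partners (22 genes, all measured) and of intracellular signalling (34 genes, 32 measured). Of the 22, 8 were higher and 3 lower by more than 1 in the mesenchymal-like lines, with a median difference of 0.23, beside 4.49% and 4.77% of all genes. Nrcam, an adhesion molecule of nerve cells, lay between 5.15 and 9.79 in the mesenchymal-like and between 2.81 and 6.56 in the epithelial-like lines, a difference of 3.64. Flrt2, a membrane protein that binds Unc5 receptors, differed by 3.09, and Rgma, a ligand of neogenin, by 2.35. Rgmb, a relative of Rgma, was the gene of this list whose values did not overlap, at 6.47 to 8.07 against 4.87 to 6.31. Dcc, the attractive netrin receptor, differed by -0.18. Of the 32 signalling genes, 2 were higher and 1 lower by more than 1, with a median of 0.19, a share close to the 9.25% of all genes. They were Dpysl3, a mediator of semaphorin signals at 2.57, the kinase Fyn at 1.64 and the actin-binding Ablim1 at -2.22. By site, 0 genes of either list passed the adjusted threshold in limma.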

How the data were processed

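Arrays of type GeneChip Mouse Genome 430 2.0 gave the RNA signals of 23 murine PDAC cell lines. The deposited log2 values, 1 for each probe set of each array, had been background-corrected, normalized and summarised by the authors. The study's methods name VSN and the submitters' processing notes RMA, without versions. The values were used unchanged, with no pseudocount. Of 45101 probe sets, 64 controls were left out. Symbols came from the platform's annotation, and the 932 probe sets with several symbols and 9160 with none were not named.

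Sites were compared in limma 3.58.1 (R 4.3.3; lmFit, eBayes, duplicateCorrelation, block correlation 0.243) with p-values adjusted by Benjamini-Hochberg over 45037 probe sets, a threshold of 0.05, and again within 4 mice. P-values measure only the spread between these lines, and the number of arrays limits the precision. EMT states are a description. The background level is the array median, since only 43 olfactory receptor probe sets, planned as the reference, were listed and 100 were needed. Signals of different probe sets were not compared. The fits were tested on simulated data. Named are the members with the largest differences by state, the smallest p by site, the widest ranges and fixed ligand-receptor pairs. A further allele of the mouse model is not reported here. The members and lists were chosen with earlier results of these data known. Python 3.11.15 and matplotlib 3.10.9 were used.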

Additional observations from a re-analysis of the deposited data

Results flagged for a closer look

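In the 6 mesenchymal-like lines, 29 members were searched for a line whose gap to its nearest neighbour takes up most of the range of the group, a criterion that chance alone meets in about 1 in 20 groups. It was met for 2 members, close to what that rate alone gives over 29 members. Sema3c stood at 5.92 in PPT-3250, against 9.50 to 11.26 in the other 5 lines. Unc5c stood at 6.45 in PPT-17728, against 3.98 to 4.71 in the others. Each is a single array.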

How the results depend on the processing

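The count of members called by site stayed at 0 under every alternative run, and at 0 in limma within mice. The number with an unadjusted p under 0.05 in limma reached 8 without the lines of prefix ASC. The share of all probe sets in that fit was not determined, so this rise cannot be ascribed to the members. The count of members with a difference over 1 between EMT states stayed between 13 and 17, and between 16 and 17 when any mouse was left out. The count without overlap was less stable. It fell from 4 to 0 with the division by mesenchymal markers alone, which moved PPT-5486 across, and to 0 with a division at the median score. When a mouse was left out it ranged from 4 to 7, with 7 without mouse 15272. The share of all genes without overlap shifted as well. It was 1.65% in the main division, 1.02% by mesenchymal markers alone, 0.0824% at the median score and 2.33% without mouse 15272. Quantile normalization left 3 members without overlap, no longer including Slit2, beside 1.76% of all genes. The mean over all probe sets of a gene gave 4 again, but with Sema5a and Sema4a in place of Slit2 and Nrp2, and it lowered the members above background in all lines from 25 to 16, the difference of Sema4d to -0.77 and that of Slit2 to 2.47. The division at the median score gave 3.14 for Sema3a, 2.21 for Sema7a, -2.05 for Sema3e, -1.30 for Sema4d and 0.98 for Slit3. Using only primary tumour lines, an alternative added after seeing the data, left 16 members over 1. Of the 12 members followed by state and the 4 by site under these alternatives, none changed sign. By site, several members differed in sign between all lines and the fit within mice. Among them were Sema4f, Sema3a (-0.53 and 0.345), Sema5a (-0.44 and 0.96) and Robo1 (-0.55 and 0.755). No paired analysis by replicate number was possible because the labels carry none, and the mouse served as the block. The arrays hold no counts, and dim probe sets limit the lower end.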
